A study of Homo sapiens with 15 samples.

Results

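NFE2L2 encodes NRF2, the transcription factor that switches on antioxidant and glutathione genes. It was followed here with 9 genes that it is known to control or that make, recycle or break down glutathione: GCLC, GCLM, GSR, CHAC1, HMOX1, NQO1, TXNRD1, SRXN1 and OSGIN1. These 10 genes, out of 16109 listed in at least 1 of 3 expression tables, were taken by symbol. The PC3 table listed all 10, the P493-6 table for MYCi975 listed 9 and the P493-6 table for tetracycline listed 8. OSGIN1 was not listed for P493-6, and CHAC1 was not listed for tetracycline.

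RNA was sequenced from 2 established human cell lines in 15 libraries, 3 in each of 5 groups, to ask how gene expression responds to MYCi975, a compound designed as an inhibitor of the transcription factor MYC. PC3 is a prostate cancer line with high MYC of its own, and P493-6 is a B cell line, named a Burkitt lymphoma line in the labels, that overexpresses MYC from an introduced gene which tetracycline turns off. The groups were PC3 with 8 µM MYCi975 in DMSO, PC3 with DMSO, P493-6 with 6 µM MYCi975 in DMSO, P493-6 with 0.1 µg/ml tetracycline in water, and P493-6 with DMSO, all for 24 h in RPMI medium with fetal bovine serum. Thus the tetracycline libraries and their controls also differed in solvent, and the MYCi975 dose differed between the lines. Nothing in the labels shows that replicate libraries are separate cultures. Each p-value therefore reflects library-to-library spread only, part or all of which may be technical.

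NRF2 is made continuously and, in unstressed cells, is bound by KEAP1, which hands it to a CUL3 ubiquitin ligase for destruction. Oxidants and electrophiles modify KEAP1, NRF2 then accumulates, pairs with a small MAF protein and binds antioxidant response elements (AREs), at which BACH1 competes as a repressor. Because this control acts on the protein, the NFE2L2 transcript need not follow NRF2 activity. Glutathione is the main small thiol of the cell. Its synthesis starts with glutamate-cysteine ligase, built from a catalytic subunit (GCLC) and a modifier subunit (GCLM). CHAC1 breaks glutathione down and is a known target of ATF4, the transcription factor of the amino acid and unfolded protein stress response.

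Levels are CPM, a gene's read count scaled to the total of its library, without correction for gene length, so levels are compared between groups and not between genes. Depth was 13571476 to 14146453 reads in PC3 with MYCi975, 13174502 to 15926008 in PC3 with DMSO, 10016138 to 11691303 in P493-6 with MYCi975, 8162582 to 9895173 with tetracycline and 9774101 to 12212555 in P493-6 with DMSO. MYC itself averaged 149 ± 3.75 CPM in P493-6 with tetracycline, against 4728 ± 54.8 CPM with DMSO (SD, n = 3 each). With MYCi975 it averaged 5118 ± 29.4 CPM in P493-6, and in PC3 it averaged 374 ± 13.6 CPM with MYCi975 and 304 ± 4.96 CPM with DMSO (SD, n = 3 each). Of 7 B cell markers all were listed for P493-6 and 1 (CD74) for PC3, and of 6 epithelial markers 5 were listed for PC3 and 2, EPCAM and KRT19, for P493-6. Of these EPCAM alone was listed in the MYCi975 table, at 13.3 to 14.3 CPM with MYCi975, while both together summed to 1.82 to 2.75 CPM with tetracycline and 11.1 to 12.4 CPM with DMSO, and their part in the results was not tested. The prostate luminal markers KLK3 and KLK2 were not listed for PC3. In bulk RNA, fewer cells of a type and less RNA per cell cannot be told apart.

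The promoters of 8 of the 10 genes were found in a RefSeq table (GRCh38.p14, 250 bases before to 50 after each annotated start). Both strands were searched for the ARE core TGACNNNGC, its variant TGAGNNNGC, the ATF4 element TGATGNAA and the MYC E-box CACGTG. The 4 windows below are a selection from those that hold an ARE form or the ATF4 element. Matches are in capitals, and a match on the opposite strand reads as its reverse complement.
GCLM, chr1:93909381-93909680, minus strand: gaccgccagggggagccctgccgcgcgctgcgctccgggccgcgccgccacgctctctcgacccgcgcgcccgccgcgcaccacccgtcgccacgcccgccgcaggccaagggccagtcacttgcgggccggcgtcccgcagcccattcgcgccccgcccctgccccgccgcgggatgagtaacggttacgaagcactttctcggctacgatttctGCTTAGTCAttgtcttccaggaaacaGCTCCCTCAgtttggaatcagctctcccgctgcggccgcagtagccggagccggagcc
TXNRD1, a second start, chr12:104286782-104287081, plus strand: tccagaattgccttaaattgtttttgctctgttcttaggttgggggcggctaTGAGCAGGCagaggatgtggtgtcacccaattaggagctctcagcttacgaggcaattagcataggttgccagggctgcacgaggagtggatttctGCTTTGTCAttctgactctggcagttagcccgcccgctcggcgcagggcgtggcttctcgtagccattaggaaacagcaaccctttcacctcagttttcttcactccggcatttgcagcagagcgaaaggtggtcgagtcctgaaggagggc
OSGIN1, chr16:83952990-83953289, plus strand: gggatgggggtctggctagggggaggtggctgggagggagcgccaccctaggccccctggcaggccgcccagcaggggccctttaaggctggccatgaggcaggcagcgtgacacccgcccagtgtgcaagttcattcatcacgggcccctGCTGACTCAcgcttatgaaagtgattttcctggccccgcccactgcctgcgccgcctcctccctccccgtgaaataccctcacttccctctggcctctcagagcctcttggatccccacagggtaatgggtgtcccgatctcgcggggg
CHAC1, chr15:40953221-40953520, plus strand: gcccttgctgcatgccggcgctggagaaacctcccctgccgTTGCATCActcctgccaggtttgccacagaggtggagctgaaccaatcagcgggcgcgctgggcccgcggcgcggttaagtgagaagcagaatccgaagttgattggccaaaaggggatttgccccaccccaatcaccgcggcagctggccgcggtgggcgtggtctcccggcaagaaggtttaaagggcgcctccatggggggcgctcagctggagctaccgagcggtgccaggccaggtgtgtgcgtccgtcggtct
In GCLM the capitals are the core TGACTAAGC, at position -34 from the start, and the variant TGAGGGAGC, at -8, both on the opposite strand. In TXNRD1 they are TGACAAAGC at -102, on the opposite strand, and TGAGCAGGC at -198. OSGIN1 holds TGAGTCAGC at -99 and CHAC1 holds TGATGCAA at -209, both on the opposite strand. Among the other windows, NQO1 and 1 of the 2 NFE2L2 starts held the variant and the other TXNRD1 start held the core. The second NFE2L2 start, GCLC and SRXN1 held neither form in these letters. Either ARE form was found for 5 of the 8 genes, beside 29.1% of 35116 human promoter windows of the same length. The first count is per gene, over 10 windows in all, and the share is per window, so the figures are not alike. TGACNNNGC stood in 13.3% of the human windows, TGAGNNNGC in 18.3%, TGATGNAA in 3.62% and CACGTG in 7.26%. None of the 10 windows taken for these 8 genes held CACGTG. A match is a description of letters and not of binding, and no match says only that the letters are not in this window.

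In PC3 with MYCi975 all 10 genes rose. CHAC1 and HMOX1 rose most, GCLC followed, and GSR and GCLM rose least. All 10 passed the test (limma on log2(CPM + 1) over all 13751 genes of the table, Benjamini-Hochberg adjusted p below 0.05), beside 29.0% of all genes called higher, 30.1% called lower and 59.2% called in either direction. Their median log2 fold change was 0.57, against -0.002 over all genes. In each of the 10 genes the 3 MYCi975 libraries lay above the 3 DMSO libraries, and for 61.9% of all genes the 2 groups did not overlap.

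In P493-6 with MYCi975, 1 gene was called higher and 3 lower. CHAC1 was the higher one, beside 10.6% of 12998 genes, and NFE2L2, NQO1 and TXNRD1 were the lower ones, each by 0.25 or less on the log2 scale, beside 18.0% of genes. GCLC, GCLM, HMOX1, SRXN1 and GSR did not pass the test, and the median change of the 9 genes was 0.01, against -0.04 over all genes. The 4 called genes among 9 stand beside 28.6% called in either direction, and the same 4 had groups that did not overlap, beside 40.0% of all genes. Of these 4, CHAC1 was listed only through its MYCi975 libraries and had to differ between the groups, so its call and lack of overlap carry no weight. After TMM scaling of the libraries, only NQO1 of the 3 falls was still called, and the calls over all genes were then 1777 higher and 1724 lower, against 1375 and 2338 without scaling. In the authors' deposited table none of the 3 falls had an adjusted p below 0.05, at 0.130 for NFE2L2, 0.0883 for NQO1 and 0.100 for TXNRD1.

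In P493-6 with tetracycline, 4 genes rose and 4 fell. NFE2L2, GCLC, HMOX1 and NQO1 rose, and GCLM, TXNRD1, SRXN1 and GSR fell. These counts stand beside 36.2% and 41.9% of 13703 genes called in each direction, so a share of 8 of 8 is close to the 78.1% of all genes that were called and to the 78.4% whose groups did not overlap. The median change was -0.09, against -0.05 over all genes. Both P493-6 comparisons share the same 3 DMSO libraries.

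**Figure D1:**
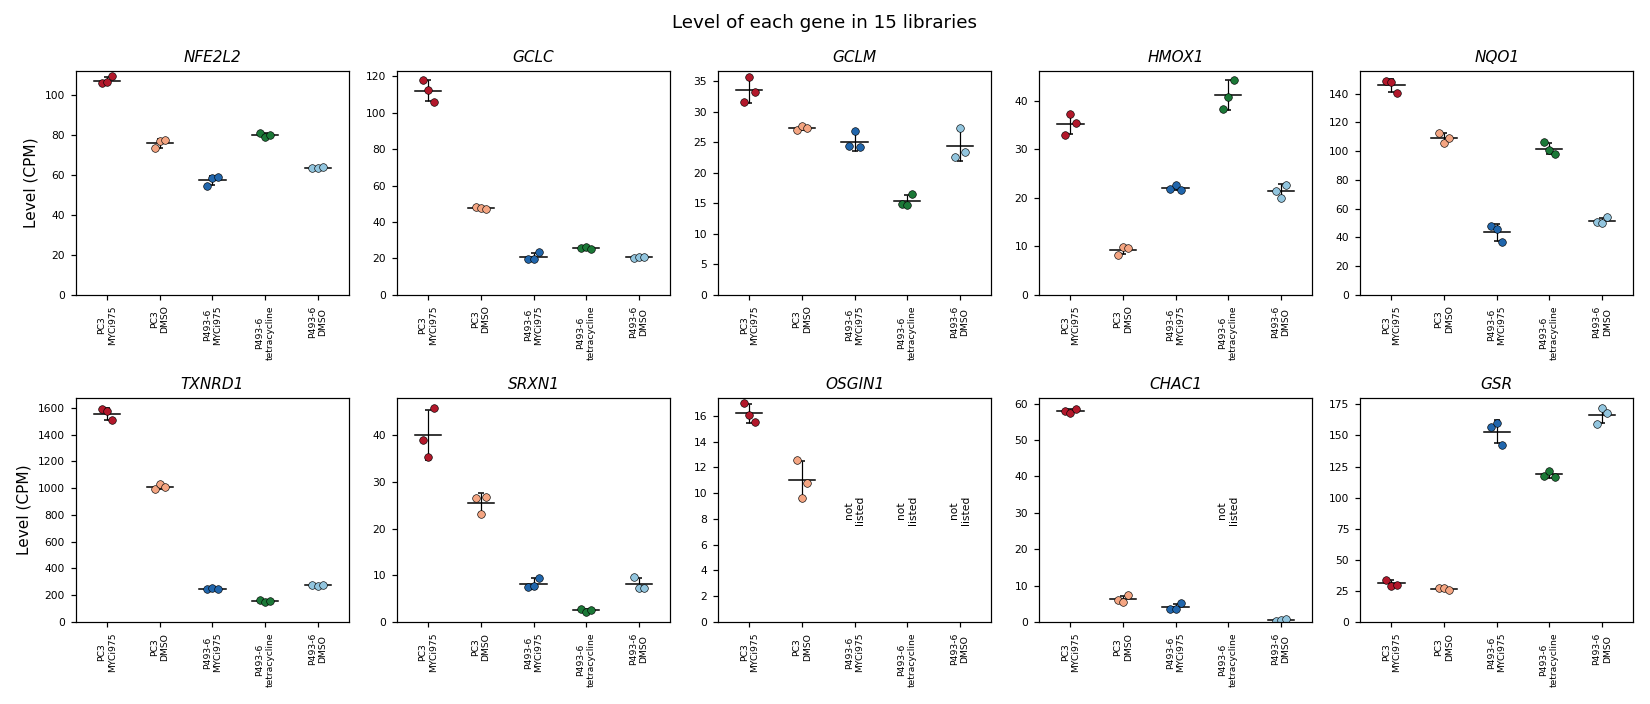
Level of each of the 10 genes in CPM (y axis, from 0, scaled per gene) in every library of the 5 groups; points are libraries, the long bar is the mean and the whiskers are 1 SD (n = 3). In PC3 the MYCi975 libraries lie above the DMSO libraries for each gene, from CHAC1 (57.9 against 6.28 CPM on average) to GSR (31.1 against 26.9 CPM).

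NFE2L2, the regulator itself (Ensembl ENSG00000116044, hg38 chr2:177227595-177392697, minus strand), had 106, 106 and 109 CPM in the PC3 libraries with MYCi975, against 73.3, 76.8 and 77.6 CPM with DMSO. In P493-6 it had 54.4, 58.4 and 58.8 CPM with MYCi975 and 80.8, 79.0 and 79.8 CPM with tetracycline, against 63.4, 63.7 and 63.9 CPM with DMSO. No group overlapped its control, and the order in P493-6 was tetracycline, DMSO, MYCi975. On the log2 scale NFE2L2 rose by 0.49 ± 0.045 (SE) in PC3 (adjusted p = 2.07e-17) and by 0.32 ± 0.058 in P493-6 given tetracycline (adjusted p = 4.49e-06). The change with MYCi975 in P493-6 was -0.15 ± 0.059 (adjusted p = 0.0473), and leaving out any 1 of the DMSO libraries or MYCi975 replicate 1 or 2 put it above the threshold, with adjusted p from 0.0658 to 0.213.

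GCLC, the catalytic subunit of glutamate-cysteine ligase (ENSG00000001084, chr6:53497341-53616970, minus strand), had 118, 113 and 106 CPM in PC3 with MYCi975, against 48.2, 47.8 and 47.4 CPM with DMSO. The treated libraries thus lay far outside the controls, and the log2 change was 1.21 ± 0.049 (adjusted p = 1.71e-40). In P493-6 GCLC had 19.8, 19.4 and 23.4 CPM with MYCi975 and 25.7, 26.1 and 24.9 CPM with tetracycline, against 20.2, 21.0 and 20.6 CPM with DMSO. The MYCi975 libraries overlapped the controls, with a change of 0.01 and a 95% interval of -0.17 to 0.20 (adjusted p = 0.924), which holds no change of the size seen in PC3. The tetracycline libraries lay above the controls by 0.30 ± 0.090 (adjusted p = 0.00275).

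GCLM, the modifier subunit, which makes the ligase more active (ENSG00000023909, chr1:93885205-93909456, minus strand), had 31.6, 35.6 and 33.2 CPM in PC3 with MYCi975, against 27.0, 27.6 and 27.2 CPM with DMSO. Its rise of 0.28 ± 0.068 (adjusted p = 0.000201) was smaller than that of GCLC, with 95% intervals of 0.15 to 0.42 for GCLM and 1.12 to 1.31 for GCLC that do not overlap. GCLM had, in P493-6, 24.3, 26.8 and 24.2 CPM with MYCi975 and 14.9, 14.7 and 16.5 CPM with tetracycline, against 22.5, 27.3 and 23.4 CPM with DMSO. MYCi975 left it within the control range at 0.04 (95% interval -0.13 to 0.22, adjusted p = 0.759), whereas with tetracycline it fell by 0.63 (SE 0.100, adjusted p = 4.86e-07).

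The subunits of the ligase did not move alike. Within each library, reads of GCLC per read of GCLM numbered 3.73, 3.16 and 3.20 in PC3 with MYCi975, against 1.79, 1.73 and 1.74 with DMSO. In P493-6 the ratio was 0.813, 0.724 and 0.967 with MYCi975 and 1.72, 1.77 and 1.51 with tetracycline, against 0.897, 0.769 and 0.878 with DMSO. The groups did not overlap in PC3 or with tetracycline, and did overlap with MYCi975 in P493-6. This ratio does not depend on how libraries are scaled, but it takes no account of gene length and is not a ratio of molecules, and the difference was not tested further.

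**Figure D2:**
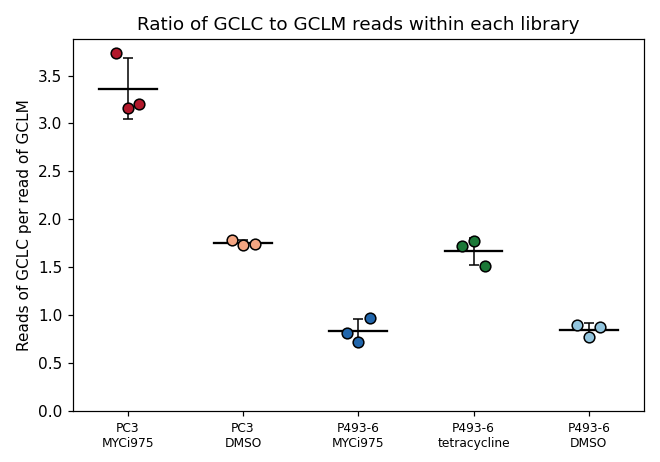
Reads of GCLC per read of GCLM (y axis, from 0) in each library of the 5 groups; points are libraries, the bar is the mean and whiskers are 1 SD (n = 3). The ratio averaged 3.36 in PC3 with MYCi975 and 1.75 with DMSO, and in P493-6 0.835 with MYCi975, 1.67 with tetracycline and 0.848 with DMSO.

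GSR, glutathione reductase, which returns oxidised glutathione to its reduced form (ENSG00000104687, chr8:30678061-30727926, minus strand), had 34.0, 29.2 and 30.1 CPM in PC3 with MYCi975, against 27.4, 27.3 and 26.0 CPM with DMSO. The rise of 0.20 ± 0.070 (adjusted p = 0.0107) was the smallest of the 10, and without MYCi975 replicate 1 it was 0.14 with an adjusted p of 0.136. Levels of GSR in P493-6 were 157, 159.7 and 142 CPM with MYCi975 and 118, 122 and 117 CPM with tetracycline, against 159, 172 and 168 CPM with DMSO. With tetracycline it fell by 0.48 (SE 0.048, adjusted p = 9.85e-12), while the change with MYCi975 was -0.12 ± 0.048 (adjusted p = 0.0554), with libraries that overlapped.

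CHAC1, the glutathione-degrading enzyme (ENSG00000128965, chr15:40952962-40956519, plus strand), had 57.8, 57.4 and 58.6 CPM in PC3 with MYCi975, against 6.03, 5.52 and 7.29 CPM with DMSO. This was the largest change among the members in PC3, 3.03 ± 0.083 on the log2(CPM + 1) scale (adjusted p = 2.1e-53), and the summed levels stood in a ratio of 9.31 (95% counting interval 8.22 to 10.6). In P493-6 it had 3.51, 3.65 and 5.09 CPM with MYCi975, against 0.194, 0.491 and 0.818 CPM with DMSO. The MYCi975 libraries lay above the controls by 1.77 ± 0.20 (adjusted p = 2.48e-09). All 3 DMSO libraries were below 1 CPM, so the gene was listed only through its MYCi975 libraries and had to differ between the groups. Its reads, taken from the CPM steps, numbered 129 in the MYCi975 libraries together and 16 in the DMSO libraries, a ratio of summed levels of 8.18 (4.85 to 14.7), and the counting intervals of the ratios in the 2 lines overlapped.

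HMOX1, heme oxygenase, which opens the heme ring and frees its iron (ENSG00000100292, chr22:35380361-35394214, plus strand), had 33.0, 37.3 and 35.3 CPM in PC3 with MYCi975, against 8.16, 9.87 and 9.56 CPM with DMSO. It rose by 1.83 ± 0.085 on the log2 scale (adjusted p = 1.25e-35), with no overlap. P493-6 cells had 21.8, 22.7 and 21.7 CPM with MYCi975 and 38.3, 40.8 and 44.4 CPM with tetracycline, against 21.4, 19.9 and 22.7 CPM with DMSO. The MYCi975 libraries lay among the controls, at 0.05 (95% interval -0.13 to 0.23, adjusted p = 0.735), and the tetracycline libraries lay above them by 0.92 ± 0.085 (adjusted p = 1.15e-12).

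NQO1, a quinone reductase long used as a marker of NRF2 activity (ENSG00000181019, chr16:69706996-69726951, minus strand), had 149, 148 and 141 CPM in PC3 with MYCi975, against 113, 106 and 109 CPM with DMSO, a rise of 0.41 ± 0.041 (adjusted p = 9.1e-16). NQO1 in P493-6 had 47.7, 46.1 and 36.4 CPM with MYCi975 and 106, 101 and 98.1 CPM with tetracycline, against 50.4, 50.0 and 53.9 CPM with DMSO. It thus rose with tetracycline, by 0.97 ± 0.060 (adjusted p = 5.18e-18), and was lower with MYCi975, with a change of -0.25 ± 0.075 (adjusted p = 0.0103). MYCi975 replicate 3 was the lowest library, and without it the change was -0.13 with an adjusted p of 0.179; without DMSO replicate 3 it was -0.21 with an adjusted p of 0.0655.

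TXNRD1, the cytosolic thioredoxin reductase, a selenoprotein that keeps thioredoxin reduced (ENSG00000198431, chr12:104215779-104350305, plus strand), had 1591, 1575 and 1508 CPM in PC3 with MYCi975, against 994, 1030.4 and 1012 CPM with DMSO. The rise was 0.62 ± 0.025 (adjusted p = 2.41e-40). Levels of TXNRD1 in P493-6 were 244, 257 and 245 CPM with MYCi975 and 162, 149 and 160.1 CPM with tetracycline, against 273, 272 and 275 CPM with DMSO. Both treatments lay below the controls, with changes of -0.13 ± 0.042 for MYCi975 (adjusted p = 0.0115) and -0.80 ± 0.044 for tetracycline (adjusted p = 1.94e-19). Without MYCi975 replicate 1 the first had an adjusted p of 0.0622.

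SRXN1, sulfiredoxin, which repairs over-oxidised peroxiredoxins (ENSG00000271303, chr20:646615-653370, minus strand), had 39.1, 35.3 and 45.8 CPM in PC3 with MYCi975, against 26.6, 23.1 and 26.7 CPM with DMSO, a rise of 0.63 ± 0.073 (adjusted p = 2.47e-11). SRXN1 in P493-6 had 7.53, 7.60 and 9.48 CPM with MYCi975 and 2.75, 2.08 and 2.63 CPM with tetracycline, against 9.60, 7.29 and 7.37 CPM with DMSO. Tetracycline gave its lowest level and the largest fall among the members, -1.38 ± 0.17 (adjusted p = 1.08e-09), while MYCi975 left it within the control range at 0.02 (95% interval -0.25 to 0.29, adjusted p = 0.924). OSGIN1, a growth inhibitor induced by oxidative stress (ENSG00000140961, chr16:83948282-83966332, plus strand), had 17.0, 16.1 and 15.6 CPM in PC3 with MYCi975, against 12.6, 9.61 and 10.8 CPM with DMSO. It rose by 0.53 ± 0.098 (adjusted p = 1.93e-06).

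**Figure D3:**
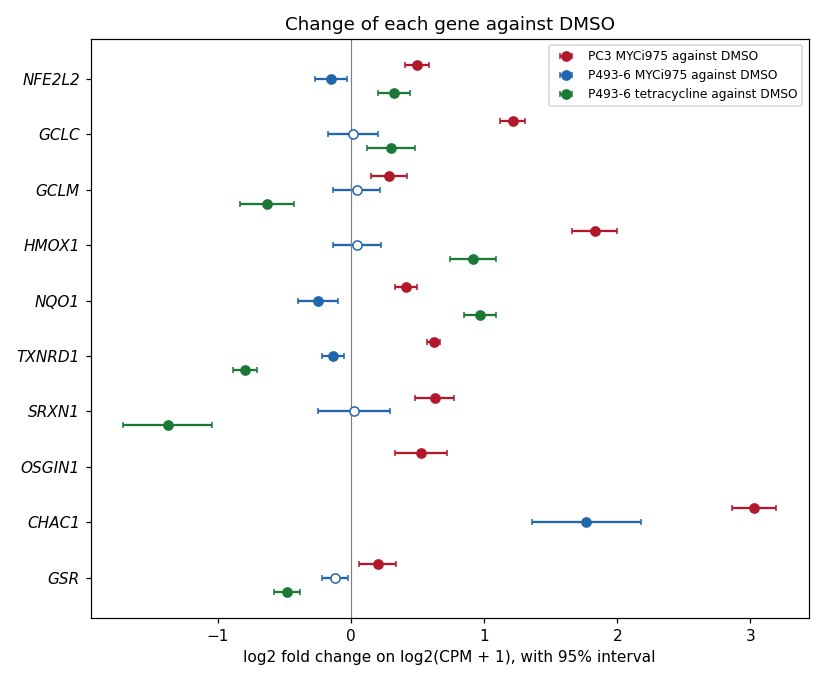
Log2 fold change against DMSO on log2(CPM + 1) (x axis) of each gene (y axis) for MYCi975 in PC3 and for MYCi975 or tetracycline in P493-6; whiskers are 95% intervals of the fit and open points did not pass an adjusted p of 0.05. All 10 PC3 points lie right of 0, and with tetracycline HMOX1 (0.92) and NQO1 (0.97) lie on the opposite side from TXNRD1 (-0.80) and SRXN1 (-1.38).

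Setting the lines side by side, the MYCi975 response was larger in PC3 than in P493-6 for 8 of the 9 genes listed in both tables, by a test of the difference itself (interaction of line and treatment, 12 libraries, 11240 genes), beside 18.1% of all genes called in that direction, 18.2% in the other and 36.3% in either. The differences were 1.78 ± 0.12 for HMOX1 (adjusted p = 7.08e-15), 1.20 ± 0.096 for GCLC (adjusted p = 3.78e-13), 0.76 ± 0.046 for TXNRD1, 0.66 ± 0.096 for NQO1, 0.65 ± 0.071 for NFE2L2, 0.61 ± 0.15 for SRXN1 and 0.32 ± 0.082 for GSR, with adjusted p up to 0.0019. GCLM did not pass, at 0.24 (adjusted p = 0.0886). CHAC1 differed by 1.26 ± 0.21 (adjusted p = 5.23e-06), but with a pseudocount of 0.1 in place of 1 CPM its difference was 0.27 with an adjusted p of 0.687. The dose was 8 µM in PC3 and 6 µM in P493-6, so line and dose cannot be told apart.

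MYCi975 and tetracycline were also compared directly in P493-6. Relative to tetracycline, MYCi975 gave higher SRXN1 (1.40 ± 0.15), GCLM (0.67 ± 0.095), TXNRD1 (0.66 ± 0.044) and GSR (0.36 ± 0.049). It gave lower NQO1 (-1.22 ± 0.072), HMOX1 (-0.87 ± 0.085), NFE2L2 (-0.48 ± 0.059) and GCLC (-0.29 ± 0.092). All 8 passed the test, with adjusted p up to 0.00465, beside 42.3% of 12860 genes called higher, 33.9% called lower and 76.2% called in either direction. The groups did not overlap in any of the 8, as in 76.9% of all genes. The 7 B cell markers summed to 4311 to 4631 CPM with MYCi975, 10911 to 11329 CPM with tetracycline and 3796 to 4012 CPM with DMSO. LYZ, the 1 myeloid marker of 3 that was listed, had 3.79 to 6.42 CPM with MYCi975, 54.4 to 61.6 CPM with tetracycline and 4.56 to 5.42 CPM with DMSO. The T cell markers CD3E and CD2 summed to 9.41 to 12.1 CPM with tetracycline and 3.93 to 5.72 CPM with DMSO, and CD3D was not listed. CD3E alone was listed for MYCi975, at 4.28 to 5.63 CPM. The part of these markers in the tetracycline results was not tested.

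Without MYCi975 or tetracycline the lines already differed. PC3 with DMSO had more TXNRD1 (1.89 ± 0.032 on the log2 scale), SRXN1 (1.55 ± 0.11), GCLC (1.18 ± 0.068), NQO1 (1.07 ± 0.068), NFE2L2 (0.25 ± 0.050) and CHAC1 (2.29 ± 0.15) than P493-6 with DMSO, and less GSR (-2.58 ± 0.058) and HMOX1 (-1.13 ± 0.088), with adjusted p up to 2.25e-05. These 6 higher and 2 lower genes stand beside 41.8% and 43.0% of 11240 genes, and the 8 called beside 84.8% in either direction, so calls between lines were common. Groups did not overlap in 8 of the 9 genes, beside 85.3% of all genes. GCLM did not pass, at 0.16 with an adjusted p of 0.0563. CHAC1 had 0.194 to 0.818 CPM in P493-6 with DMSO, so the size of its difference depends on the pseudocount. It was listed for P493-6 only through its MYCi975 libraries. Over the 5 groups the order differed from gene to gene: HMOX1 was highest in P493-6 with tetracycline, GSR in P493-6 with DMSO, and NFE2L2, GCLC, GCLM, NQO1, TXNRD1, SRXN1 and CHAC1 in PC3 with MYCi975. Some groups close to each other in that order overlapped. NQO1 spanned 98.1 to 106 CPM in P493-6 with tetracycline and 106 to 113 CPM in PC3 with DMSO, 1 library in each group lying within the range of the other. GCLM in P493-6 with DMSO, at 22.5 to 27.3 CPM, overlapped both P493-6 with MYCi975 and PC3 with DMSO. NFE2L2 in P493-6 with tetracycline, at 79.0 to 80.8 CPM, lay just above PC3 with DMSO at 73.3 to 77.6 CPM. These cross-line neighbours other than the DMSO groups were not tested.

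The regulators of NRF2 were read from a list of 13 genes. Counts of this and the next lists stand beside the shares and medians over all genes given above for the same comparisons, and each gene named from a list as risen or fallen passed the test, with adjusted p up to 0.038. In PC3 with MYCi975, 7 rose and 4 fell, with a median change of 0.45. SQSTM1, whose p62 protein can tie up KEAP1, averaged 2263 ± 38.2 CPM with MYCi975 and 812 ± 18.7 CPM with DMSO (SD, n = 3 each), a change of 1.48. MAFG, a small MAF partner, rose by 0.97 to 132 ± 1.67 CPM, against 67.1 ± 1.68 CPM with DMSO, and the repressor BACH1 rose by 0.83. In P493-6 with MYCi975, 5 of 12 rose and 2 fell, with a median of 0.15. The rise of NFE2L1, a relative of NRF2, was 0.36, and the ubiquitin ligase subunits CUL3 and RBX1 fell by 0.31 and 0.30. With tetracycline 6 of 13 rose and 6 fell, with a median of 0.08. BACH2, a B cell relative of BACH1, rose by 1.95 to 65.6 ± 2.16 CPM, against 16.3 ± 1.47 CPM with DMSO, and MAFK fell by 1.73. MAFF rose by 1.86 to 4.21 ± 0.413 CPM and was listed only through the tetracycline libraries, since DMSO libraries had 0.409 to 0.485 CPM.

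Of the other NRF2 targets, a list of 34, 29 were listed for PC3, where 21 rose and 2 fell, with a median of 0.46. AKR1C1, an aldo-keto reductase, averaged 13.3 ± 0.659 CPM with MYCi975 and 3.82 ± 0.614 CPM with DMSO (SD, n = 3 each). FTH1, the ferritin heavy chain, averaged 8896 ± 177 CPM with MYCi975 and 3684 ± 58.0 CPM with DMSO. TRIM16L rose by 1.50. These 3 genes have close copies or pseudogenes, whose reads the counting may have split or dropped, so their values are uncertain. AKR1C2, also counted as risen, had 0.377 to 0.519 CPM with DMSO and was listed only through its MYCi975 libraries. In P493-6 with MYCi975, 4 of 23 rose and 2 fell, with a median of 0.02. The heme transporter SLC48A1 rose by 0.58 and FTH1 by 0.34, and the peroxiredoxin PRDX1 fell by 0.30. With tetracycline 5 of 23 rose and 15 fell, with a median of -0.51. Among the falls, TRIM16L had 0.459 to 0.980 CPM with tetracycline and was listed only through its DMSO libraries. Thioredoxin itself, TXN, had 65.2, 54.8 and 64.6 CPM with tetracycline, against 222, 248 and 228 CPM with DMSO, a fall of 1.90. TKT of the pentose phosphate pathway fell by 1.34, while ABHD4, a lipase, rose by 1.77.

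Genes of glutathione synthesis, transport and breakdown formed a list of 17. In PC3 with MYCi975 7 of 13 rose and 3 fell, with a median of 0.35. SLC7A11, the cystine importer, had 134, 139.6 and 129.7 CPM with MYCi975, against 33.9, 34.8 and 34.2 CPM with DMSO, a change of 1.94. CTH, which makes cysteine from cystathionine, rose by 1.04. CBS, the enzyme before it, rose by 1.20 but averaged 1.61 CPM with MYCi975 and 0.128 CPM with DMSO, with 1 DMSO library at 0, and was listed only through its MYCi975 libraries. In P493-6 with MYCi975, 5 of 12 rose and 2 fell, with a median of 0.07. SLC7A11 rose by 0.70, to 26.8, 30.6 and 33.5 CPM, against 18.8, 17.9 and 18.0 CPM with DMSO, and GGT1, which breaks down glutathione outside the cell, rose by 0.50. CTH had 3.93, 3.26 and 3.0 CPM with MYCi975, against 1.16, 0.819 and 0.614 CPM with DMSO, a rise of 1.24 in a gene listed only through its MYCi975 libraries. With tetracycline 4 of 12 rose and 7 fell, with a median of -0.51. SLC3A2, the partner chain of SLC7A11, fell by 2.07 to 39.3 ± 3.18 CPM, against 167 ± 4.01 CPM with DMSO (SD, n = 3 each). CBS, listed only through its DMSO libraries, had 0.23, 0 and 0.202 CPM with tetracycline, against 4.36, 4.09 and 3.99 CPM with DMSO, and DPEP2, a dipeptidase, rose by 2.20.

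**Figure D4:**
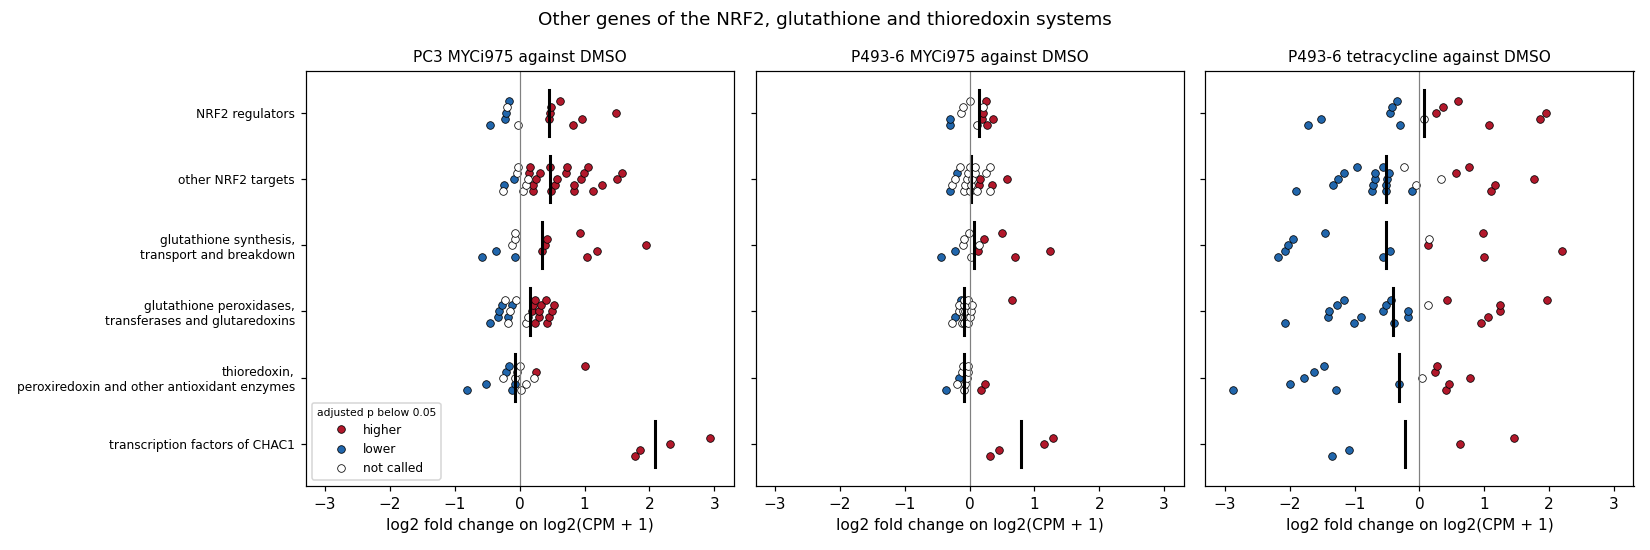
Log2 fold change against DMSO on log2(CPM + 1) (x axis, same scale in the 3 panels) of the listed genes of 6 lists (y axis); each point is a gene, filled where the adjusted p is below 0.05, and the bar is the median of the list. Other NRF2 targets have a median of 0.46 in PC3 with MYCi975, 0.02 in P493-6 with MYCi975 and -0.51 with tetracycline.

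Among glutathione peroxidases, transferases and glutaredoxins, 12 of 24 rose and 6 fell in PC3 with MYCi975, with a median of 0.16. The peroxidase GPX8 rose by 0.53 and the transferase GSTO2 by 0.50, and GSTCD fell by 0.46. With MYCi975 in P493-6, 1 of 20 rose and 2 fell, with a median of -0.08. GSTM2, a gene with near-identical relatives and so uncertain, rose by 0.66, and GLRX5 and GLO1 fell by 0.23 and 0.13. The fall of GLO1 (adjusted p = 0.038) was no longer called after TMM scaling, at -0.085 (adjusted p = 0.189). With tetracycline 6 of 20 rose and 13 fell, with a median of -0.41. Among the falls, GSTA4 had 0.344 to 0.980 CPM with tetracycline and was listed only through its DMSO libraries. The membrane transferase MGST1 fell by 2.08 to 9.62 ± 1.11 CPM, against 43.6 ± 1.0 CPM with DMSO, the glyoxalase GLO1 fell by 1.42 and GSTM2 rose by 1.96.

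Among thioredoxin, peroxiredoxin and other antioxidant enzymes, 2 of 15 rose and 6 fell in PC3 with MYCi975, with a median of -0.07. Mitochondrial superoxide dismutase, SOD2, rose by 1.01 to 120.4 ± 4.25 CPM, against 59.1 ± 2.22 CPM with DMSO. Catalase, CAT, fell by 0.81 to 49.2 ± 1.67 CPM, against 86.7 ± 2.97 CPM with DMSO, and the mitochondrial peroxiredoxin PRDX3 fell by 0.52. With MYCi975 in P493-6, 2 of 12 rose and 2 fell, with a median of -0.08, among them PRDX3, which fell by 0.36, and PRDX5 and PRDX2, which rose by 0.23 and 0.18. With tetracycline 5 of 13 rose and 7 fell, with a median of -0.32. MSRB2 of this list, at 1.10 to 1.95 CPM with tetracycline and 0.388 to 0.655 CPM with DMSO, was listed only through its tetracycline libraries. PRDX4, the peroxiredoxin of the endoplasmic reticulum, fell by 2.87 to 14.0 ± 0.724 CPM, against 109 ± 6.17 CPM with DMSO, SOD1 fell by 2.0 and SOD2 by 1.78.

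The transcription factors known to act on CHAC1 were ATF4, ATF3, DDIT3 and CEBPB. With MYCi975 all 4 rose in each line, with a median of 2.08 in PC3 and 0.80 in P493-6. In PC3, DDIT3 had 100.2, 93.8 and 87.4 CPM with MYCi975, against 11.5, 12.5 and 10.2 CPM with DMSO, a change of 2.93. CEBPB changed by 2.31 and ATF4 by 1.85. In P493-6 ATF3 changed by 1.29, DDIT3 by 1.15 and CEBPB by 0.46. With tetracycline 2 rose and 2 fell: ATF3 changed by 1.45, CEBPB by -1.35 and ATF4 by -1.08, with 138, 136 and 131 CPM of ATF4 with tetracycline against 296, 290.3 and 273 CPM with DMSO.

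Genes with the most similar pattern of change were sought among 9776 genes listed in all 3 tables with a mean of at least 5 CPM, by the Euclidean distance of the 3 log2 fold changes. Among the genes nearest to NFE2L2 were CHMP1B (0.0102) and STK40 (0.0745). Nearest to GCLM were CZIB (0.0275), DNAH14 (0.0280) and ARFIP2 (0.0428). The comparisons on which the distance rests share the P493-6 DMSO libraries. For CHAC1, which was not listed for tetracycline, no distance was computed.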

How the data were processed

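Stranded exon-capture libraries were sequenced from 15 samples of 2 cell lines. Per the submitters' processing notes STAR, HTSeq, edgeR and hg38 were used. The sources used here give no version, annotation or strand setting of the counting, so reads of antisense partners may be included. The authors deposited CPM, which was checked to be a gene's read count scaled to its library total, with no further scaling. Other columns, per the file headers, are the deposited log2 fold change and log2 mean level, a score of the likelihood ratio, and p-values raw and adjusted. Every gene listed exceeds 1 CPM in at least 2 of its 6 libraries, and all members listed passed that filter. Both P493-6 tables hold the same DMSO libraries with equal values.

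From these values log2(CPM + 1) was tested with limma 3.58.1 in R 4.3.3 (trend and robust settings, two-sided, Benjamini-Hochberg over all genes of a table, threshold 0.05). SE and 95% intervals come from that fit, and a fold change on this scale understates that of low genes. The direct contrast used 9 libraries and the contrasts between lines 12. Counting intervals cover counting error only. The alternatives were TMM scaling, a pseudocount of 0.1, a mean CPM of at least 5, a replicate block, leaving out each library, 1 fit of all 9 P493-6 libraries and, in PC3, edgeR 4.0.16 and DESeq2 1.42.0 on whole reads recovered from 100% of values (within 0.01 reads). A further check could not settle that step for 3 P493-6 columns, so the depths, read numbers and counting intervals of P493-6 rest on the step found here. The tests were checked on simulated data.

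The members and lists were chosen with earlier results of these data known. All members are named in every comparison, and from each list up to 3 called genes with the largest absolute change against DMSO. For NFE2L2, GCLM and CHAC1 the rule names the 3 nearest genes; some markers and 1 such gene are not reported here.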

Additional observations from a re-analysis of the deposited data

Results flagged for a closer look

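For 8 genes the response to MYCi975 differed between the lines by a test of that difference on log2(CPM + 1). On the log2 scale the response in PC3 minus that in P493-6 was 1.78 for HMOX1, 1.26 for CHAC1, 1.20 for GCLC, 0.76 for TXNRD1, 0.66 for NQO1, 0.65 for NFE2L2, 0.61 for SRXN1 and 0.32 for GSR. PC3 received 8 µM and P493-6 received 6 µM, so line and dose cannot be told apart. The call of CHAC1 depends on the pseudocount: with 0.1 in place of 1 CPM its difference was 0.27 and was not called (adjusted p = 0.687). Its P493-6 controls lay below 1 CPM, so in P493-6 it was listed only through its MYCi975 libraries. With 3 libraries per group, single libraries were not tested for standing apart.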

How the results depend on the processing

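Over 697 values of single members under the alternatives, 671 kept their direction and their side of the threshold, 13 lost the call, 6 gained it and 7 changed sign. Those 7 came from leaving out single libraries in P493-6 with MYCi975 against DMSO, in 4 members called neither with nor without the library, with ranges of -0.066 to 0.061 for GCLC, -0.011 to 0.12 for GCLM, -0.00028 to 0.091 for HMOX1 and -0.076 to 0.14 for SRXN1. In P493-6 with MYCi975, 3 members were called lower. TMM scaling left 1, with NFE2L2 at -0.11 (adjusted p = 0.16) and TXNRD1 at -0.093 (adjusted p = 0.0971). Leaving out single libraries gave 1 to 3 members called lower, with 1 without DMSO replicate 3 or without MYCi975 replicate 1. Each such omission ended the call of NFE2L2 or NQO1, and where 3 were called 1 of them was GSR, newly called. Of the list genes in the same comparison, TMM scaling also ended the calls of GGCT (adjusted p = 0.0802), GLO1 (0.189) and SOD2 (0.101). It added rises of FTL (adjusted p = 0.0264) and BACH2 (0.0449). In the tetracycline comparison, TMM scaling ended the falls of TALDO1 (adjusted p = 0.427) and GSTK1 (0.14). There it added rises of NFE2L1 (adjusted p = 0.0243) and ABCB6 (0.0307). The 1 member called higher, CHAC1, was no longer among those tested when a mean CPM of at least 5 was asked or when all 9 libraries shared 1 fit, so that 0 were called higher. GSR passed with a mean CPM of at least 5 (adjusted p = 0.0498), without DMSO replicate 1 (0.0232) and without MYCi975 replicate 2 (0.0364), within a range of 0.0232 to 0.31 over single libraries left out. GCLM passed in the difference between responses without P493-6 DMSO replicate 1 (0.29, adjusted p = 0.0402), and between lines without P493-6 DMSO replicate 2 (0.24, adjusted p = 0.00874).

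No pairing of libraries by replicate number was seen. The deviations of same-numbered libraries correlated at -0.112 to 0.0559, and not every library correlated best with its own number. Such correlations cannot exclude a pairing that is weak beside the counting noise. With replicate number as a block, NFE2L2 in P493-6 with MYCi975 kept -0.15 with an adjusted p of 0.0729, and GCLM between the lines reached an adjusted p of 0.0466. All other member calls held under the block.

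In PC3, edgeR and DESeq2 on recovered reads called the same 10 members. Count tests were not run for P493-6, where a further check left the whole-read step of 3 columns unsettled. At 8.16 to 12.2 reads per CPM in P493-6, SRXN1 and CHAC1 are imprecise.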
